A study of Homo sapiens with 36 samples.

Results

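The 7 genes described here are the secreted ribonucleases RNASE1, RNASE2, RNASE3, RNASE4, RNASE6 and ANG, which belong to the vertebrate RNase A family, and RNASET2, a lysosomal ribonuclease of the unrelated T2 family. They were taken by name from the 35474 genes obtained by summing transcript values by gene symbol. They were chosen knowing that RNASE1 is much higher with A9 in MONO-MAC-6, so the members' differences between A9 and DMSO in that line are given as a description with no test. Members were tested in MOLM-13 alone, and genes of the lists that are not members in both lines. RNA was measured by bulk sequencing in MOLM-13 and MONO-MAC-6, established human acute myeloid leukaemia cell lines labelled as wild type. Each line received the vehicle DMSO or A9 for 72 h, at 0.125 µM (MOLM-13) or 0.25 µM (MONO-MAC-6). A9 is a PROTAC, a compound that directs target proteins to degradation. The series title names IKK1 and NR4A1 as its targets, whereas the design text names IKK2 and NR4A1. The 36 libraries form 4 groups of 9, and averaging the 3 libraries with the same first number leaves 3 samples per group. The labels do not say whether samples came from separate cultures, so p-values measure the spread between these samples, which may be technical.

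Enzymes of the RNase A family cleave RNA after pyrimidine bases and are exported from the cell through a signal peptide. Inside the cytosol they are held inactive by the ribonuclease inhibitor encoded by RNH1. RNASE1 degrades RNA in blood and other fluids, and endothelial cells are a known source. RNASE2 (eosinophil-derived neurotoxin) and RNASE3 (eosinophil cationic protein) are stored in eosinophil granules, and RNASE2 is also made by monocytes. RNASE6 is an antimicrobial enzyme of monocytes and macrophages. ANG, or angiogenin, cleaves transfer RNA under stress and promotes blood vessel growth. RNASE4 prefers uridine and shares promoters and first exons with ANG. RNASET2 works at acid pH in lysosomes, where it and RNASE2 can release RNA fragments that activate the receptor TLR8.

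The 6 family members lie in a cluster on chromosome 14 of GRCh38, as annotated by GENCODE 29. RNASE4 (ENSG00000258818) spans chr14:20684100-20701215 and ANG (ENSG00000214274) chr14:20684177-20698971, both on the plus strand. RNASE6 (ENSG00000169413, chr14:20781051-20782467), RNASE3 (ENSG00000169397, chr14:20891399-20892348) and RNASE2 (ENSG00000169385, chr14:20955452-20956436) are also on the plus strand. RNASE1 (ENSG00000129538, chr14:20801228-20803278) is on the minus strand. RNASET2 (ENSG00000026297) lies on chromosome 6, at chr6:166929504-166957191 on the minus strand. All 7 are protein-coding genes.

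The family signature CKxxNTF, a run of residues that holds the catalytic lysine, shows what the 6 family members share in their coding sequence. Its coding bases in GRCh38 follow, 5′ to 3′, with the variable codons in capitals.
RNASE1: tgcaaaCCAGTGaacaccttt
RNASE2: tgcaaaAACCAAaatactttc
RNASE3: tgcaaaAACCAAaatactttt
RNASE4: tgcaagCGCTTCaacaccttc
RNASE6: tgtaagCATCAAaataccttt
ANG: tgcaaaGACATCaacacattt
They lie in coding exons at chr14:20801847-20801867 on the minus strand for RNASE1, and on the plus strand at chr14:20955961-20955981 for RNASE2, chr14:20891876-20891896 for RNASE3, chr14:20699570-20699590 for RNASE4, chr14:20781877-20781897 for RNASE6 and chr14:20693751-20693771 for ANG. The pair of variable codons is identical in RNASE2 and RNASE3 and in no other 2 of these genes. The signature was found in 0 of 8 coding transcripts of RNASET2. When coding sequences were aligned, RNASE2 and RNASE3 shared 85.2% of 480 aligned bases. The other 14 pairs of family members shared 66.8% to 74.9% of 340 to 418 aligned bases, with bases set against gaps left out. The coding sequences have 441 to 483 bases, so the percentages of these pairs cover a smaller part than that of RNASE2 and RNASE3.

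RNASE2 and RNASE3 are also alike upstream of their starts, and these stretches are shown because the differences of both genes pointed the same way in each line. They come from the RefSeq promoter windows on GRCh38.p14, plus strand, at chr14:20955237-20955451 and chr14:20891186-20891366. Capitals mark bases with no identical partner in the other gene.
RNASE2: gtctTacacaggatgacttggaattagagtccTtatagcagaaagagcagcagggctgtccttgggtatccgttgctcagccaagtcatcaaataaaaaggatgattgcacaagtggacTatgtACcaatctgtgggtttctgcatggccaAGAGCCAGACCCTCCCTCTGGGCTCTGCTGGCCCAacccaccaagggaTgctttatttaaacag
RNASE3: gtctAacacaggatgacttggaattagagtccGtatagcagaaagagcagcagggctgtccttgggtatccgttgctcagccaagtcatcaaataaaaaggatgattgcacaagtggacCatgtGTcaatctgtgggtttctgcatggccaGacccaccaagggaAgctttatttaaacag
Of 181 aligned bases, 174 (96.1%) were identical, 7 differed, and 34 further bases were present in RNASE2 alone. Both hold the letters TTGCACAA, a match to the C/EBP motif TTGCNNAA searched on both strands, which 10.5% of 34943 RefSeq windows of the same length hold. The motif was found in 3 of 9 windows of the members, those of RNASE1, RNASE2 and RNASE3.

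ANG and RNASE4 each have transcripts from 2 regions of annotated starts. The 250 bases before the second region, chr14:20688514-20688763 on the plus strand, are intronic for transcripts of the first region. They are printed because transcripts that begin just after them were higher with A9 in both lines. Capitals mark TATATA.
ANG and RNASE4: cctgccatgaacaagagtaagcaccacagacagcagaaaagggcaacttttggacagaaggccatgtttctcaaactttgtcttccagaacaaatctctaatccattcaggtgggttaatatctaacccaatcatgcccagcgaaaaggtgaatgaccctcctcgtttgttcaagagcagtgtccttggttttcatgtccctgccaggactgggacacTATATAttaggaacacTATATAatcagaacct
TATATA occurs in 4.0% of the 34943 windows. Of the other motifs searched on both strands in 9 windows of the members, the AP-1 motif TGANTCA was found in 1 (RNASE1; 7.7% of all windows) and the PU.1 motif GAGGAA in 4 (27.9% of all windows). The NR4A motif AAAGGTCA was found in 0 (1.2% of all windows) and the NF-kB motif in 0 (5.9% of all windows). A match describes letters in a window and is not evidence of binding.

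Values are TPM, transcript abundance per unit length scaled so that all libraries have an equal total, so levels of different genes can be compared within a table. Counts were not kept in TPM, so the depth behind a value is unknown and counting intervals cannot be given. From 86918 to 105082 transcripts were above 0 per library. The lines come from separate tables, so levels set across them are descriptions. Of 11597 genes tested in MOLM-13, 14 (0.121%) had an adjusted p under 0.05 by limma with Benjamini-Hochberg adjustment, 10 (0.0862%) higher and 4 (0.0345%) lower with A9. Of 12870 tested in MONO-MAC-6, 433 (3.36%) passed, 323 (2.51%) higher and 110 (0.855%) lower. These totals depended on single samples: when each was left out, they ranged from 2 to 8 for MOLM-13 and from 59 to 3203 for MONO-MAC-6, with 3203 without DMSO sample 1. The median log2 fold change of all genes was -0.05 for MOLM-13 and 0.16 for MONO-MAC-6. Median-ratio scaling moved the latter to -0.01, so differences in MONO-MAC-6 are also given relative to the median. Both lines expressed the myeloid genes SPI1 (158 to 344 TPM per sample) and CD33 (26.5 to 40.9 TPM). CD14 stayed at or under 0.491 TPM in MOLM-13 and reached at least 2.66 TPM in every sample of MONO-MAC-6.

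RNASE2 was the highest of the 7 genes in all 4 groups, followed by RNASET2, RNASE3 and RNASE6. In MOLM-13, ANG, RNASE4 and RNASE1 followed in that order with either treatment, and samples of neighbours in the order did not overlap. In MONO-MAC-6 with DMSO the order was the same, but ANG and RNASE4 overlapped. With A9 in that line RNASE1 moved from the lowest place to just under RNASE6, with overlapping samples, and above RNASE4 and ANG, which overlapped each other. RNASE2 held 93.8% ± 0.1 (SD, n = 3) of the summed TPM of the 6 family members in MOLM-13 with DMSO and 93.6% ± 0.2 with A9. In MONO-MAC-6 it held 87.9% ± 0.503 with DMSO and 87.1% ± 0.173 with A9.

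**Figure D1:**
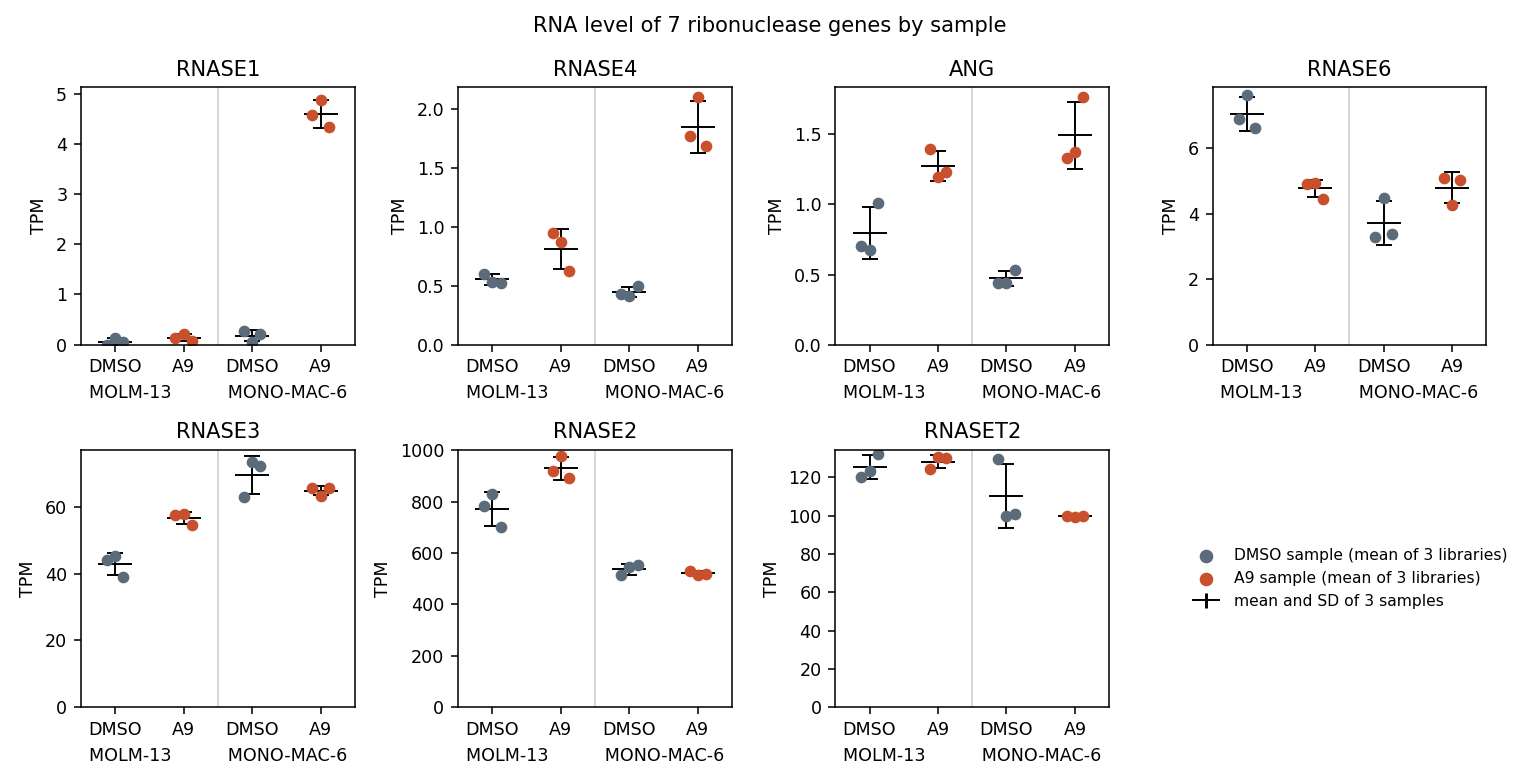
RNA level in TPM (vertical axes, each from 0) of the 7 ribonuclease genes in each sample of the 4 groups; points are samples, each the mean of 3 libraries, and lines and bars are the mean and SD of 3 samples. RNASE1 is at 4.33 to 4.88 TPM in MONO-MAC-6 with A9 and at most 0.264 TPM in all other samples, while RNASE2 stays between 513 and 978 TPM.

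RNASE1 was near 0 in every group but MONO-MAC-6 with A9. In MONO-MAC-6 it was 0.264, 0.0497 and 0.216 TPM in the 3 DMSO samples and 4.57, 4.88 and 4.33 TPM in the 3 A9 samples. Every A9 sample was far above every DMSO sample. The means were 0.177 ± 0.113 TPM (SD, n = 3) and 4.59 ± 0.279 TPM (SD, n = 3), a ratio of 26.0. The denominator of this ratio is low, and 2 of 9 DMSO libraries were listed at 0. The fitted log2 fold change was 2.25 (SE 0.12) on the log2(TPM + 1) scale, 2.09 above the median of all genes, and 4.18 with a pseudocount of 0.1. The 9 A9 libraries ran from 3.85 to 5.08 TPM. In bulk RNA, more cells of a type with RNASE1 and more RNASE1 per cell cannot be told apart.

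In MOLM-13, RNASE1 was 0, 0.132 and 0.0544 TPM with DMSO and 0.138, 0.208 and 0.0783 TPM with A9. The groups overlapped, and 6 of 9 DMSO libraries and 1 of 9 A9 libraries were listed at 0. RNASE1 was under the filter for testing, which asks for 1 TPM or more as the mean of some group. The difference between the lines, which also differed in dose, was not tested.

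Of the 5 annotated RNASE1 transcripts, ENST00000397967, the longest at 1348 bases, held most of the gene's TPM in MONO-MAC-6 with A9. There it was 3.31, 4.52 and 3.11 TPM, which was 72.3%, 92.6% and 71.8% of the gene. With DMSO it was 0.095, 0 and 0.0453 TPM, a mean share of 19.0%, while ENST00000555698 held 69.7% at 0.102 ± 0.049 TPM (SD, n = 3). In MOLM-13 all 5 transcripts were at most 0.115 TPM in any sample. The other 4 transcripts were at most 0.766 TPM in any A9 sample of MONO-MAC-6. No stretch of 31 bases of RNASE1 transcripts was shared with another gene, so its reads have no annotated competitor of that length.

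Marker genes of other cell types were examined beside the RNASE1 difference. The summed TPM of 6 endothelial genes was at most 0.147 in any sample of either line, and in MONO-MAC-6 with A9 it was 0.0411 to 0.0445 with CDH5 and KDR at 0. The summed TPM of 6 macrophage genes was 2.82 to 3.43 with DMSO and 4.03 to 4.84 with A9 in MONO-MAC-6, with C1QA and C1QB at 0 in all groups. The summed TPM of 11 myeloid and monocyte genes, most of it from the lysozyme gene LYZ, was 4033 to 4941 with DMSO and 8909 to 9163 with A9. CD14 was 3.71, 2.66 and 3.05 TPM with DMSO and 12.4, 13.2 and 13.5 TPM with A9 in this line. CD68 was 40.28, 56.94 and 60.15 TPM with DMSO and 159.5, 181.5 and 177.3 TPM with A9. SPI1, CD33, CSF1R and LYZ were also higher in every A9 sample than in every DMSO sample of this line. Beside this, 37.9% of all genes tested there did not overlap. The other markers of the list did not move with them. MPO, FLT3, ITGAM, FCGR1A and CD4 overlapped between treatments, with FLT3 at 524, 858 and 911 TPM with DMSO and 689, 633 and 629 TPM with A9. Of the macrophage genes, MARCO was higher (0.364, 0.332 and 0.309 TPM with DMSO, 1.56, 1.3 and 1.36 TPM with A9). CD163 and MSR1 overlapped, and MRC1 was near 0. The part of the monocyte and macrophage genes in the RNASE1 difference was not tested. Summed T-cell, B-cell, erythroid and epithelial markers were each at most 7.07 TPM in any sample.

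The 5 genes whose profile over the 6 MONO-MAC-6 samples was closest to RNASE1 were IFI30, TYROBP, CTSD, IFI6 and SIGLEC1. They were drawn from 9567 genes that average 5 TPM or more in some group, by the root mean square difference of centred log2(TPM + 1), which was 0.109 to 0.164. IFI30, a lysosomal thiol reductase, was 37.4 ± 2.94 TPM with DMSO and 175 ± 16.3 TPM with A9 (SD, n = 3). TYROBP, a signalling adaptor of myeloid receptors, was 9.44 ± 1.16 and 48.4 ± 8.02 TPM (SD, n = 3). CTSD, the lysosomal protease cathepsin D, was 154 ± 8.25 and 657 ± 80.8 TPM (SD, n = 3).
IFI6, an interferon-inducible gene, was 57.4 ± 12.3 and 309.7 ± 16.1 TPM (SD, n = 3). SIGLEC1, a sialic acid receptor of macrophages, was 0.672 ± 0.211 and 7.28 ± 0.437 TPM (SD, n = 3). All 5 were selected for this contrast, so no test is given for it. In MOLM-13, 4 of the 5 could be tested and 0 passed the limma threshold, with adjusted p from 0.205 (CTSD) to 0.968 (IFI30) and log2 fold changes from 0.03 to 0.45. SIGLEC1 was under the filter there.

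**Figure D2:**
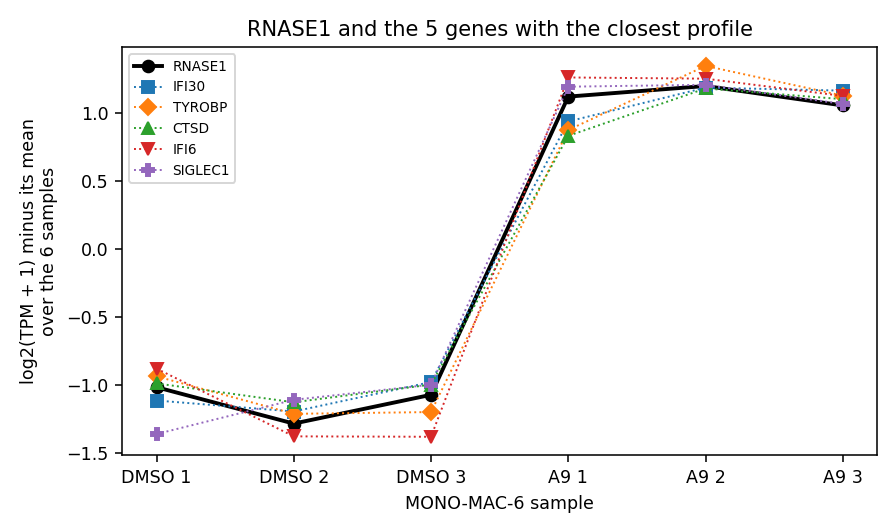
Centred log2(TPM + 1) (vertical axis) of RNASE1 and the 5 genes with the closest profile in the 6 MONO-MAC-6 samples (horizontal axis); each point is a sample. The lines lie close together because the genes were chosen for it, and the root mean square difference from RNASE1 is 0.109 for IFI30 and 0.164 for SIGLEC1.

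RNASE4 and ANG were also higher with A9 in MONO-MAC-6, from low levels. RNASE4 was 0.43, 0.409 and 0.494 TPM with DMSO and 1.77, 2.1 and 1.68 TPM with A9, without overlap. Its mean was 4.16 times the DMSO mean, with a fitted log2 fold change of 0.98 (SE 0.11), or 0.82 above the median of all genes. ANG was 0.442, 0.443 and 0.535 TPM with DMSO and 1.33, 1.38 and 1.77 TPM with A9, again without overlap. Its ratio of means was 3.15 and its log2 fold change 0.75 (SE 0.12), or 0.59 above the median. With a pseudocount of 0.1 the log2 fold changes were 1.84 for RNASE4 and 1.47 for ANG. In this line 3 of the 7 members (RNASE1, RNASE4 and ANG) had no overlap between groups, beside 37.9% of all genes tested, and nothing is read from that count because RNASE1 led to the choice of genes.

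In MOLM-13 both genes pointed the same way with smaller differences. ANG was 0.705, 0.676 and 1.01 TPM with DMSO and 1.4, 1.2 and 1.23 TPM with A9, and all A9 samples were above all DMSO samples. Its difference of 0.34 on the log2 scale (SE 0.12) was not called. It passed the filter through the A9 group alone, where it is high, so no p is given for it. RNASE4 was 0.603, 0.534 and 0.522 TPM with DMSO and 0.951, 0.868 and 0.621 TPM with A9. These groups did not overlap either, but RNASE4 was under the filter and was not tested.

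The sequence of both genes limits how far they can be told apart. Of the distinct 31-base words of RNASE4 transcripts, 71.0% occur in another gene, 51.2% in the readthrough gene ENSG00000259171 and 23.6% in ANG. Of those of ANG, 51.5% occur in another gene and 44.1% in RNASE4. The strand setting of the authors' quantification is not given in the sources used here, so antisense RNA over these exons is included if present. Their sum was therefore taken as well. In MOLM-13 the sum was 1.35 ± 0.164 TPM with DMSO and 2.09 ± 0.250 TPM with A9 (SD, n = 3). In MONO-MAC-6 it was 0.917 ± 0.0963 and 3.34 ± 0.211 TPM (SD, n = 3). The readthrough gene was 0.044 ± 0.0763 TPM with DMSO and 0.532 ± 0.251 TPM with A9 in MONO-MAC-6 (SD, n = 3), and 0.0563 ± 0.0659 and 0.0818 ± 0.071 TPM in MOLM-13 (SD, n = 3).

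Grouped by annotated start, RNASE4 and ANG transcripts of the second region took a larger share with A9 in both lines. Transcripts from the second region, ENST00000555597 of RNASE4 and ENST00000397990 of ANG, start at positions 20688773 to 20688782 of chromosome 14, just after the window printed above. In MONO-MAC-6 they summed to 0.111, 0.081 and 0.155 TPM with DMSO and to 0.951, 1.34 and 1.15 TPM with A9. Their share of RNASE4 plus ANG was 12.5% ± 2.8 with DMSO and 34.2% ± 3.9 with A9 (SD, n = 3). In MOLM-13 they summed to 0.137, 0.0683 and 0.247 TPM with DMSO and to 0.691, 0.538 and 0.409 TPM with A9, with shares of 10.7% ± 5.3 and 25.9% ± 3.7 (SD, n = 3).
In each line neither the sums nor the shares overlapped between treatments. Transcripts from the first region, which start at 20684100 to 20684614, were 0.802 ± 0.0618 TPM with DMSO and 2.19 ± 0.0885 TPM with A9 in MONO-MAC-6 (SD, n = 3). In MOLM-13 they were 1.2 ± 0.0745 and 1.54 ± 0.109 TPM (SD, n = 3). With 3 samples a side, 0.1 is the smallest p that exact permutation allows (two-sided), so these sums, grouped after their values were seen, have no test. Assignment among transcripts this low and this similar is uncertain.

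**Figure D3:**
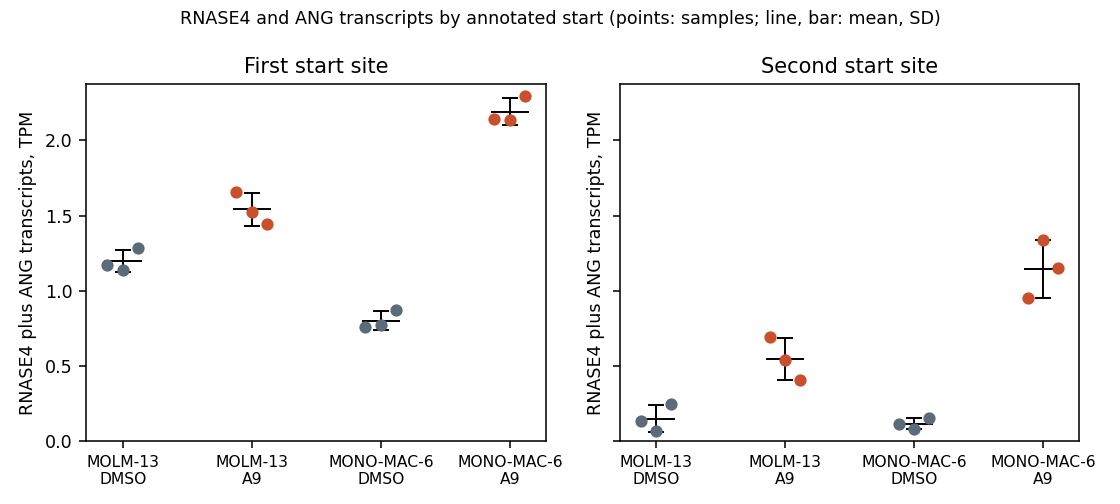
Summed TPM (vertical axis, from 0) of RNASE4 and ANG transcripts that begin in the first (left) and second (right) region of annotated starts, in the 4 groups; points are samples, lines and bars the mean and SD of 3. Second-region transcripts are at 0.0683 to 0.247 TPM in DMSO samples and 0.409 to 1.34 TPM in A9 samples.

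RNASE6 was the member that was lower with A9 in MOLM-13. It was 6.87, 7.63 and 6.61 TPM with DMSO and 4.91, 4.94 and 4.45 TPM with A9, and every A9 sample was below every DMSO sample. The means were 7.03 ± 0.528 and 4.77 ± 0.274 TPM (SD, n = 3). The log2 fold change of -0.48 (SE 0.11) did not pass the limma test over all genes (adjusted p = 0.237, unadjusted p = 0.0042). It passed with each sample's trend on transcript length removed (-0.52, adjusted p = 0.0426). In MONO-MAC-6, RNASE6 was 3.28, 4.48 and 3.38 TPM with DMSO and 5.08, 4.25 and 5.03 TPM with A9. These groups overlapped, and the log2 fold change of 0.30 (SE 0.15) was 0.14 above the median of all genes. RNASE6 has 1 transcript and shared no 31-base word with another gene.

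RNASE2 and RNASE3 were somewhat higher with A9 in MOLM-13 and about level in MONO-MAC-6. In MOLM-13, RNASE2 was 784, 829 and 701 TPM with DMSO and 919, 978 and 891 TPM with A9. RNASE3 was 44.1, 45.2 and 39.1 TPM with DMSO and 57.4, 57.8 and 54.4 TPM with A9. Samples did not overlap between treatments for either gene, but neither gene passed the limma test over all genes. The log2 fold change of RNASE2 was 0.27 (SE 0.08, adjusted p = 0.383, unadjusted p = 0.0132), and that of RNASE3 0.40 (SE 0.08, adjusted p = 0.173, unadjusted p = 0.00193).

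In MONO-MAC-6, RNASE2 was 513, 546 and 552 TPM with DMSO and 531, 516 and 518 TPM with A9. RNASE3 was 62.9, 73.3 and 72.2 TPM with DMSO and 65.5, 63.2 and 65.5 TPM with A9. Both overlapped between treatments, with log2 fold changes of -0.04 (SE 0.07) and -0.10 (SE 0.09), which lay 0.20 and 0.26 below the median of all genes. RNASE2 was 18.0 ± 0.296 times RNASE3 with DMSO and 16.4 ± 0.474 times with A9 in MOLM-13 (SD, n = 3). The same ratio was 7.75 ± 0.365 and 8.06 ± 0.139 in MONO-MAC-6 (SD, n = 3). Reads can move between these genes where they are identical, since 12.3% of the 31-base words of RNASE2 occur in RNASE3 and 12.9% of those of RNASE3 in RNASE2.

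Eosinophil markers were set beside RNASE2 and RNASE3 because both proteins are known from eosinophil granules. The summed TPM of 5 eosinophil genes was 1.18 to 1.65 with DMSO and 2.63 to 3.56 with A9 in MOLM-13, and CLC was at 0 in both groups. Most of it came from PRG2, the major basic protein gene, at 1.22, 0.9 and 0.853 TPM with DMSO and 2.11, 2.63 and 3.06 TPM with A9. In MONO-MAC-6 the sum was 0.662 to 0.85 with DMSO and 0.523 to 0.859 with A9. Their part in the RNASE2 and RNASE3 values was not tested.

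RNASET2 hardly differed between treatments in MOLM-13. It was 120.2, 123 and 132 TPM with DMSO and 124, 130.4 and 130.0 TPM with A9, with overlap between treatments. Its log2 fold change was 0.03 (SE 0.06; adjusted p = 0.905 by limma). In MONO-MAC-6 it was 129, 99.9 and 101 TPM with DMSO and 99.7, 99.4 and 100 TPM with A9. DMSO sample 1 stood apart, and the log2 fold change of -0.13 (SE 0.12) was -0.01 without it. Relative to the median of all genes the difference was -0.29, and with median-ratio scaling it was -0.32. This sample is also the one whose removal raised the number of genes called in that line to 3203.

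Within RNASET2 the make-up of transcripts differed between treatments in MONO-MAC-6. ENST00000476238, the most abundant protein-coding transcript, was 61.9, 42.3 and 41.4 TPM with DMSO and 33.1, 36.5 and 37.7 TPM with A9, without overlap. Its share of the gene was 43.7% ± 3.6 with DMSO and 35.8% ± 2.3 with A9 (SD, n = 3). All protein-coding transcripts together held 60.9% ± 3.5 and 53.9% ± 1.8, and transcripts annotated for nonsense-mediated decay 37.7% ± 3.4 and 44.1% ± 1.7 (SD, n = 3). Retained-intron transcripts held 0.8% ± 0.2 and 1.6% ± 0.2 (SD, n = 3).
Shares of each of these 3 classes did not overlap between treatments in this line. The gap was narrow for protein-coding transcripts, at least 57.3% with DMSO and at most 55.9% with A9. It was also narrow for transcripts annotated for nonsense-mediated decay, at most 41.4% with DMSO and at least 42.4% with A9. For gene TPM, 37.9% of all genes tested in this line did not overlap. The shares were not tested, and the assignment of reads among the 14 annotated transcripts was not checked. In MOLM-13 the protein-coding share was 58.9% ± 1.0 with DMSO and 59.9% ± 4.5 with A9 (SD, n = 3), and the 2 treatments overlapped. Over the 12 samples, the profiles closest to RNASET2 among 8248 genes were those of BUD23, TEX264, MBD3, NUBP2 and PMF1, with root mean square differences of 0.027 to 0.035. RNASET2 itself varied little, so this likeness is mainly of small deviations.

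In MOLM-13, 5 of the 7 members passed the filter, ANG through its A9 group alone, and 0 were called by limma, beside 0.121% of all genes tested. RNASE2, RNASE3 and RNASE6 had an unadjusted p under 0.05, as did 916 of the 11597 genes tested. The samples of these 3 genes did not overlap between treatments (RNASE2 and RNASE3 higher, RNASE6 lower), beside 15.0% of all genes tested. ANG and RNASE4 did not overlap either, but ANG entered the test through the group where it is high and RNASE4 was not tested, so they cannot be set against that share. Leaving out any single sample changed no direction and gave no call for the 5 members tested.

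**Figure D4:**
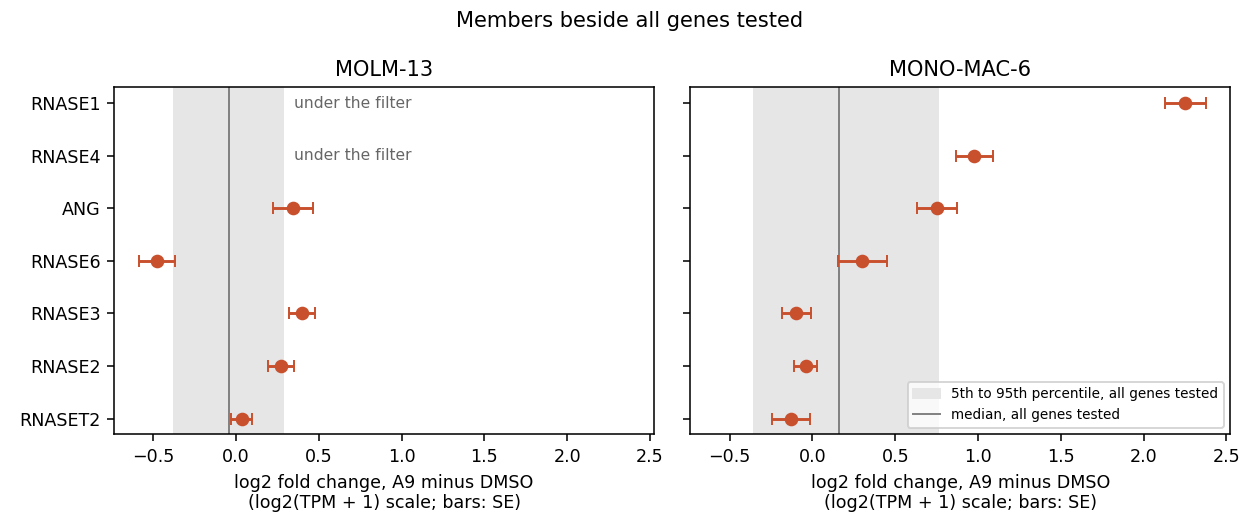
Log2 fold change (A9 minus DMSO on the log2(TPM + 1) scale, horizontal axis) of each member in the 2 lines; points are fitted values, bars the SE, the grey band the 5th to 95th percentile of all genes tested and the grey line their median. In MOLM-13, RNASE3 at 0.40 lies above the band and RNASE6 at -0.48 below it. RNASE1 (2.25) and RNASE4 (0.98) in MONO-MAC-6 and ANG in both lines (0.34 in MOLM-13) passed the filter through the A9 group alone. They are high there, so their place beside the band is not read.

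The surroundings of the cluster were compared to see whether neighbouring genes differed as well. Within 1000 kb of the RNASE1 start, 18 other genes could be tested in MOLM-13. The number was 21 in MONO-MAC-6. Of these, 0 were called in either line, beside 0.121% (MOLM-13) and 3.36% (MONO-MAC-6) of all genes tested. At shares this low, 0 calls among so few genes cannot show whether neighbours differed. Their log2 fold changes ran from -0.27 to 0.22 in the first line and from -0.59 to 0.60 in the second. The nearest tested genes were PNP, which encodes a purine nucleoside phosphorylase and starts 334.3 kb before RNASE1, and METTL17, 186.5 kb after it. Of a list of 16 neighbours of the cluster, 13 were tested, with medians of -0.06 (MOLM-13) and 0.19 (MONO-MAC-6) beside -0.05 and 0.16 for all genes. An unadjusted p under 0.05 was reached by 2 of them in MOLM-13, as by 916 of the 11597 genes tested. In MONO-MAC-6 it was reached by 3, as by 2632 of the 12870 genes tested, and 4 were called without DMSO sample 1. The samples of 4 of the 13 did not overlap in MOLM-13, beside 15.0% of all genes tested. In MONO-MAC-6 those of 7 did not, beside 37.9%. The 7 other RNase A family genes, RNASE7 to RNASE13, were all under the filter in both lines.
For RNASET2, 3 of 8 neighbours on chromosome 6 were tested and 0 were called in either line. They are too few to set beside the shares of all genes. At an unadjusted p under 0.05 the counts were 0 for MOLM-13 and 1 for MONO-MAC-6, and 1 was called in the latter without DMSO sample 1. Their median log2 fold changes were 0.04 and 0.28.

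**Figure D5:**
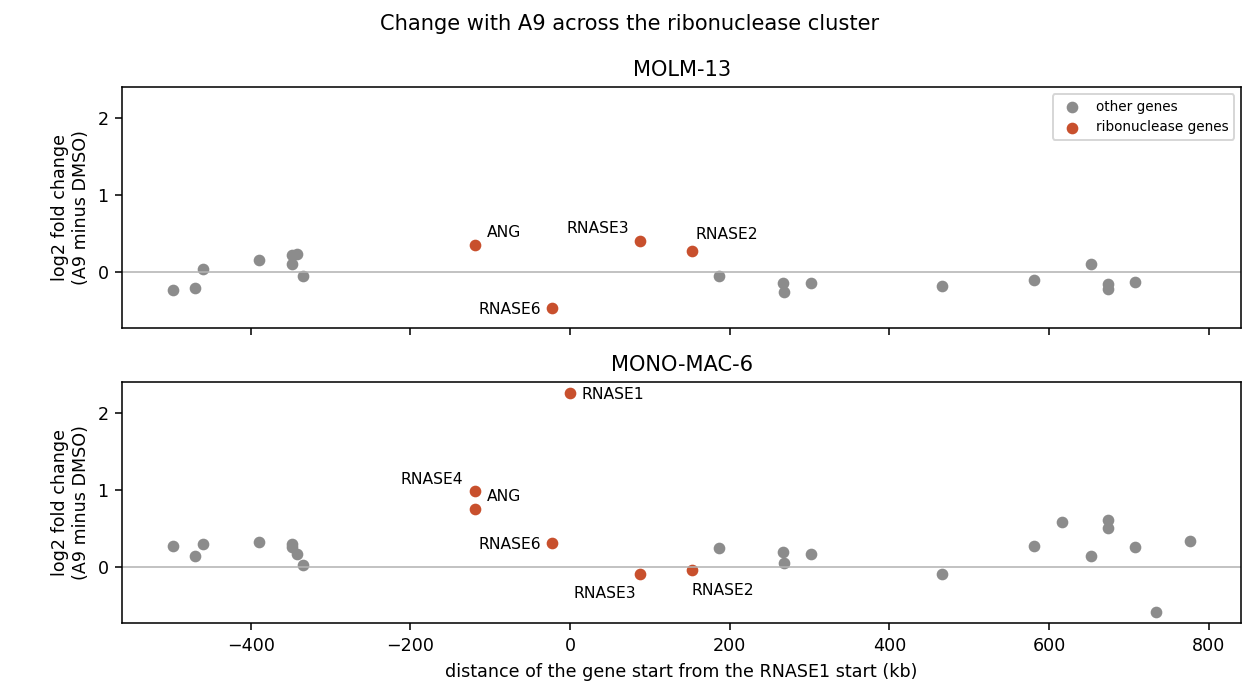
Log2 fold change (vertical axis, A9 minus DMSO) of tested genes against the distance of their start from the RNASE1 start in kb (horizontal axis), in MOLM-13 (top) and MONO-MAC-6 (bottom). Members are orange and other genes grey. RNASE1, RNASE4 and ANG stand above the grey points in MONO-MAC-6, whose values end at 0.60. These 3 members passed the filter through the A9 group alone, where they are high, so nothing is read from their place.

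Partners of these enzymes gave no call. RNH1, which encodes the cytosolic inhibitor, was 109 ± 2.28 TPM with DMSO and 126 ± 5.55 TPM with A9 in MOLM-13 (SD, n = 3), a difference of 0.21 on the log2 scale (limma adjusted p = 0.34). The MONO-MAC-6 levels were 129.8 ± 12.3 and 151 ± 3.71 TPM (SD, n = 3), a difference of 0.22 (adjusted p = 0.238). PLXNB2, an angiogenin receptor, was 56.8 ± 8.79 TPM with DMSO and 50.7 ± 9.71 TPM with A9 in MOLM-13 (SD, n = 3). In MONO-MAC-6 it was 11.8 ± 1.02 and 10.4 ± 0.216 TPM. Neither gene was called in either line by limma over all genes, and at an unadjusted p under 0.05 there was 1 in each line. Without DMSO sample 1, 1 of the 2 was called in MONO-MAC-6.

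Endolysosomal genes that handle nucleic acids, the compartment in which RNASET2 acts, gave 1 call. Of 18 such genes 15 were tested in each line. In MOLM-13, 0 were called, beside 0.121% of all genes tested. An unadjusted p under 0.05 was reached by 1, as by 916 of the 11597 genes tested. The median of the list was 0.14 beside -0.05 for all genes. In MONO-MAC-6, 6 of the 15 had an unadjusted p under 0.05, as did 2632 of the 12870 genes tested, and the samples of 12 did not overlap between treatments, beside 37.9% of all genes tested. The list median there was 0.28 beside 0.16. TLR9, an endosomal DNA receptor, was the sole call, at 1.64 ± 0.169 TPM with DMSO and 0.669 ± 0.141 TPM with A9 (SD, n = 3), a difference of -0.66 on the log2 scale (limma adjusted p = 0.0396). It passed the filter through the DMSO group alone, where it is high, so the call rests on the filter. The count of calls was 0 with no filter, with a pseudocount of 0.1 and with the replicate block. It was also 0 when any of DMSO samples 2 and 3 or A9 samples 1, 2 and 3 was left out, and 7 without DMSO sample 1. TLR8, the receptor of fragments made by RNASET2 and RNASE2, was under the filter in both lines, at 0.246 ± 0.0796 TPM with DMSO and 0.655 ± 0.0703 TPM with A9 in MONO-MAC-6 (SD, n = 3).

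Among 28 other cellular ribonucleases, 27 were tested in each line. In MOLM-13, 0 were called, beside 0.121% of all genes tested. An unadjusted p under 0.05 was reached by 3, as by 916 of the 11597 genes tested. In MONO-MAC-6, 2 were called, beside 3.36% of all genes tested. SAMHD1, a nucleotide hydrolase with reported nuclease activity, rose in MONO-MAC-6 from 48.2 ± 15.6 to 163.8 ± 11.6 TPM (SD, n = 3; log2 fold change 1.80, limma adjusted p = 0.0183). RNASEH2B, a subunit of ribonuclease H2, fell there from 109.9 ± 6.22 to 80.1 ± 3.67 TPM (SD, n = 3; log2 fold change -0.45, adjusted p = 0.0392). The list median was 0.20 beside 0.16 for all genes. The 2 calls became 0 without DMSO sample 2 or without any A9 sample, and 1 without DMSO sample 3. They were 0 with no filter and 1 with median-ratio scaling or with the replicate block.

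Granule genes were examined because RNASE2 and RNASE3 are granule proteins. In MOLM-13, 8 of 15 were tested and 1 was called, beside 0.121% of all genes tested. It was LYZ, which differed by 1.29 on the log2 scale (limma adjusted p = 0.00518). An unadjusted p under 0.05 was reached by 5 of the 8, as by 916 of the 11597 genes tested. The samples of 5 did not overlap, beside 15.0% of all genes tested. These were LYZ, PRG2, ELANE and PRTN3, higher with A9, and CTSG, lower. PRTN3 was 24.6 ± 28.7 TPM with DMSO and 344.1 ± 37.85 TPM with A9 (SD, n = 3). The count of calls was 0 without A9 sample 1. The list median was 0.53 beside -0.05 for all genes. PRG2, among the 8, passed the filter through its A9 group alone, where it is high. Nothing is read from this median or from the counts of 5 for that reason. In MONO-MAC-6, 7 were tested and 2 were called, beside 3.36% of all genes tested. LYZ rose (1.17, limma adjusted p = 0.00274) and CTSG, the granule protease cathepsin G, fell (-1.36, adjusted p = 0.00564). An unadjusted p under 0.05 was reached by 5 of the 7, as by 2632 of the 12870 genes tested. The samples of 5 did not overlap, beside 37.9% of all genes tested. The list median was 0.28 beside 0.16. The count of 2 was 1 without A9 sample 2 or 3 and 6 without DMSO sample 1.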

How the data were processed

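Bulk poly(A) RNA of MOLM-13 and MONO-MAC-6 cells was sequenced as paired reads, per the labels' protocols. The submitters' processing notes name kallisto, limma and GRCh38, without versions. The deposited tables, 1 per line, hold TPM per Ensembl transcript made by the authors, and each library summed to 1000000. Depth cannot be read from TPM.

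Transcripts were matched by identifier to GENCODE 29, with symbols updated through a table of gene names: 162561 of 207175 (78.5%) matched, holding 89.9% to 91.4% of TPM per library. TPM were summed by symbol and averaged over the 3 libraries sharing a first number. Genes with a group mean of at least 1 TPM were tested on log2(TPM + 1) with limma 3.58.1 (R 4.3.3; trend, robust), A9 against DMSO in each line separately, two-sided, adjusted by Benjamini-Hochberg over all genes, threshold 0.05. A fold change on this scale understates the change of low genes. On simulated data with 200 changed genes, 85.5% were recovered in MOLM-13 (11597 genes), with 5 false calls. In MONO-MAC-6 (12870 genes) 77.5% were recovered, with 7 false calls. Recovery at the size of the members' differences in MOLM-13 was not tested. Python 3.11.15, pandas 2.3.3 and matplotlib 3.10.9 made tables and figures.

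The members and the 7 gene lists were chosen with earlier results of these data known. Named genes are every member, list genes past the threshold (at most 4 per list), and the 5 closest profiles to RNASE1 and to RNASET2. PLXNB2, RNH1, PNP, METTL17, TLR8, PRTN3, ELANE and the markers named were added after their values were seen. Alternatives were a pseudocount of 0.1, no filter, median-ratio scaling, a replicate block, averaging by second number, length trend removal (lowess span 0.3), leaving out transcripts under 0.1 TPM, and leaving out each sample. The 7 genes had 28 transcripts listed. Sequences come from GRCh38 and from RefSeq windows of GRCh38.p14.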

Additional observations from a re-analysis of the deposited data

Results flagged for a closer look

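In 3 members every A9 sample lay on 1 side of the DMSO mean in MOLM-13 and on the other side in MONO-MAC-6. The log2 fold change of RNASE2 was 0.271 for MOLM-13 and -0.041 for MONO-MAC-6. In the same order it was 0.397 and -0.097 for RNASE3, and -0.478 and 0.302 for RNASE6. These differences between lines were not tested, and the lines also differed in dose. In MONO-MAC-6 the A9 and DMSO samples of each of these genes overlapped.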

How the results depend on the processing

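The RNASE1 log2 fold change in MONO-MAC-6 was 4.182 with a pseudocount of 0.1 and 2.172 to 2.307 when a sample was left out. No member changed direction under any alternative run. Averaging by second number, which leaves the spread between first numbers out of the error, gave 5437 calls for MOLM-13 and 8702 for MONO-MAC-6, and made RNASE2 (0.268), RNASE3 (0.395) and RNASE6 (-0.48) pass in MOLM-13. RNASE6 also passed with the length trend removed (-0.52). Left-out samples gave log2 fold changes in MOLM-13 of 0.204 to 0.324 for RNASE2, 0.335 to 0.437 for RNASE3, -0.516 to -0.425 for RNASE6, 0.297 to 0.427 for ANG and 0.004 to 0.073 for RNASET2.

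Counts of genes called in MOLM-13 were 46 with scaling, 4 with no filter, 177 after length trend removal and 2 to 8 with a sample left out. In MONO-MAC-6 they were 254 with no filter, 1196 after length trend removal and 59 to 3203 with a sample left out. With the replicate block there were 87 for MOLM-13 and 94 for MONO-MAC-6. The main fit did not treat the numbers as pairs. Deviations of same-numbered samples correlated at 0.361, -0.077 and 0.676 within MOLM-13 and at -0.0272, 0.0879 and -0.0909 within MONO-MAC-6. The values within MOLM-13 do not set pairing aside for that line. With the block, limma adjusted p in MOLM-13 was 0.0901 for RNASE2, 0.0755 for RNASE3 and 0.132 for RNASE6. The cause of the moves in counts was not tested.

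Averaging by second number gave, in MOLM-13 and MONO-MAC-6, 2 and 1 calls among the inhibitor and angiogenin partner genes, 11 and 11 endolysosomal genes, 16 and 23 other ribonucleases, 7 and 7 granule genes, 8 and 11 chromosome 14 neighbours and 2 and 2 chromosome 6 neighbours. In MOLM-13 the replicate block gave 1 endolysosomal and 3 granule calls, and length trend removal 2 endolysosomal, 1 ribonuclease and 4 granule calls. In MONO-MAC-6 the endolysosomal count was 0 with a pseudocount of 0.1, with no filter and with the block. The ribonuclease count was 0 with no filter and 1 with scaling or the block. With a sample left out, counts in MONO-MAC-6 were 0 to 7 endolysosomal, 0 to 2 ribonuclease, 1 to 6 granule, 0 to 4 and 0 to 1 neighbour genes on chromosomes 14 and 6, and 0 to 1 partner genes. In MOLM-13 they were 0 to 1 granule genes and 0 in the other lists. TPM hold no depth, so values of RNASE1, RNASE4 and ANG under 1 TPM have an unknown counting error.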
